A study of Acomys cahirinus and Mus musculus with 6 samples.

Results

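Cluster 10 is a population of keratinocytes from ear skin healing after a punch, in the spiny mouse and in the laboratory mouse. Its cells were taken from the deposited cell annotation as those with the type name IFE suprabasal (the layers of the interfollicular epidermis above the basal layer) and the cluster number 10. There were 1106 such cells among the 39577 cells of the 6 libraries, and 7336 further cells carried the same type name in the other 10 of 11 suprabasal clusters. The working name of the cluster, granular keratinocytes, rests on 7 genes: Flg, Flg2, Hrnr, Lce1f, Asprv1, Cdsn and Serpina12.

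Skin of the ear pinna around a punch wound was profiled by droplet single-cell RNA sequencing, which counts unique molecular identifiers (UMIs), each standing for 1 captured transcript molecule. Wild-type spiny mice (Acomys) received an ERK inhibitor, an ErbB2 inhibitor, an FGFR1/2/3 inhibitor or DMSO, the solvent control, by injection over days 12 to 15. CD1 laboratory mice received micro-beads soaked in recombinant FGF2 and NRG1, ligands of FGF and ErbB receptors, or in PBS, placed in the wound area on day 10. Each group was 1 library, the labels give neither animal ages nor the number of animals, and the 3 inhibitor comparisons share the DMSO library. No difference between groups therefore has a replicate check, and every interval below is a 95% interval that covers counting error only.

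Cluster 10 held 35 cells with 50794 UMIs under ERK inhibitor, 525 cells with 1122300 UMIs under ErbB2 inhibitor, 194 cells with 371308 UMIs under FGFR inhibitor and 253 cells with 455339 UMIs under DMSO. It held 49 cells with 65519 UMIs around FGF2 and NRG1 beads and 50 cells with 75889 UMIs around PBS beads. The cells were shallow: their median UMI count was between 1063 and 1680.5, which is 18.0% to 48.6% of the median cell of the same library, while the other suprabasal cells had medians between 6326 and 20405. The ERK inhibitor library had the lowest of these shares and the DMSO library the highest. The deepest single cell gave 13.9% of the cluster's UMIs under ERK inhibitor, 10.1% around FGF2 and NRG1 beads and 7.89% around PBS beads, and between 1.65% and 3.03% in the 3 larger sets. No barcode was shared between libraries within cluster 10, and 8 of its 1106 cells had a barcode that also occurred in another library.

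The granular layer is the last living layer of the epidermis. Its cells store keratohyalin granules made mainly of profilaggrin, build a cornified envelope of crosslinked proteins under the membrane, release lamellar bodies with lipids and proteases, and then lose their nucleus to become corneocytes. Flg and Flg2 encode the filaggrins, Hrnr encodes the related hornerin, and Lce1f encodes a late cornified envelope protein. Asprv1 encodes the protease SASPase, which processes profilaggrin, Cdsn encodes corneodesmosin, which holds corneocytes together, and Serpina12 encodes a serine protease inhibitor. In the mouse build GRCm38, whose gene names all libraries carry, 4 of these genes lie close together in the epidermal differentiation complex of chromosome 3: Lce1f at 92718685 to 92720350, Flg2 at 93197278 to 93221391, Flg at 93273523 to 93293686 and Hrnr at 93319749 to 93333570. Asprv1 lies on chromosome 6 at 86628164 to 86629710, Cdsn on chromosome 17 at 35552128 to 35557180 and Serpina12 on chromosome 12 at 104028769 to 104044443. All 7 are annotated as protein-coding genes, and the counts are per gene rather than per exon or UTR.

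The 7 genes were abundant in the 3 large spiny mouse sets and nearly missing from the mouse sets, against the label. Summed over the 7 genes, cluster 10 had 16400 CPM (UMI counts scaled to a common total, here over all UMIs of the cluster) under ErbB2 inhibitor, 10110 CPM under FGFR inhibitor and 9856 CPM under DMSO, but 2205 CPM under ERK inhibitor. It had 259 CPM around FGF2 and NRG1 beads and 264 CPM around PBS beads. In every library a different cluster, number 35, carried more of the 7 genes, with 47608 CPM under ERK inhibitor (5 cells), 39063 under ErbB2 inhibitor, 30364 under FGFR inhibitor, 25666 under DMSO, 10163 around FGF2 and NRG1 beads and 10227 around PBS beads. Of the 5 cells of cluster 35 under ERK inhibitor, 1 cell gave 2331 of the 2358 Flg UMIs. Cluster 10 came second among the suprabasal clusters in each library, followed by cluster 27, which had 1234 CPM under ERK inhibitor, 4972 under ErbB2 inhibitor, 4452 under FGFR inhibitor, 2683 under DMSO, 225 around FGF2 and NRG1 beads and 154 around PBS beads.

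**Figure D1:**
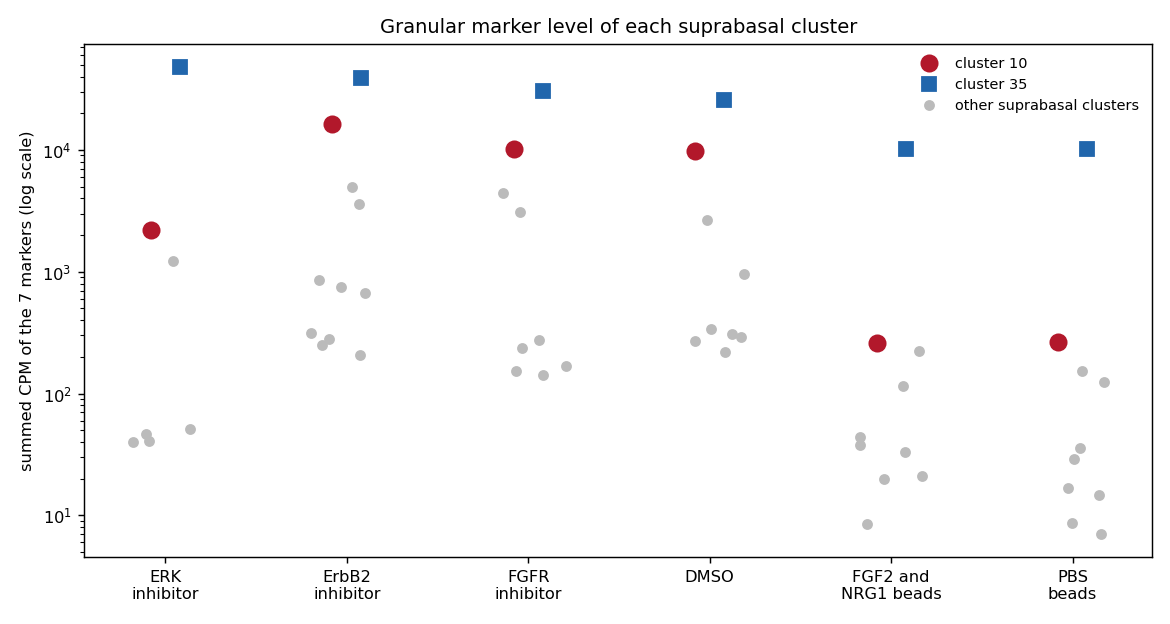
Summed level of the 7 granular genes (CPM of each cluster's UMIs, log axis) in every suprabasal cluster of each library, with cluster 10 as a red circle, cluster 35 as a blue square and the other clusters in grey. Cluster 35 lies above cluster 10 in each library, and cluster 10 lies near 260 CPM in both mouse libraries, against 9856 CPM under DMSO.

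Cell by cell, 7 of 35 cells had at least 3 of the 7 genes under ERK inhibitor (20%), 416 of 525 under ErbB2 inhibitor (79.2%), 92 of 194 under FGFR inhibitor (47.4%) and 130 of 253 under DMSO (51.4%). In the mouse 0 of 49 cells reached 3 genes around FGF2 and NRG1 beads and 2 of 50 around PBS beads (4%). Cells with none of the 7 genes were 45.7%, 2.29%, 18.0% and 8.70% of the cluster in the ERK, ErbB2, FGFR inhibitor and DMSO libraries, and 77.6% and 82.0% in the FGF2 and NRG1 and the PBS bead libraries. Cells were also thinned to 1000 UMIs, which evens out depth, and cells below 1000 UMIs were left out. Left out were 7, 60, 8 and 24 cells in the ERK, ErbB2, FGFR inhibitor and DMSO libraries. At least 3 genes were present in 17.9% of the thinned cells under ERK inhibitor, 65.8% under ErbB2 inhibitor, 35.5% under FGFR inhibitor and 38.9% under DMSO. Among the cells the 7 genes ranged widely: they gave at most 1.73% of a cell's UMIs under ERK inhibitor, 21.0% under ErbB2 inhibitor, 23.3% under FGFR inhibitor and 14.4% under DMSO, with medians of 0.0605%, 0.8%, 0.258% and 0.284%.

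**Figure D2:**
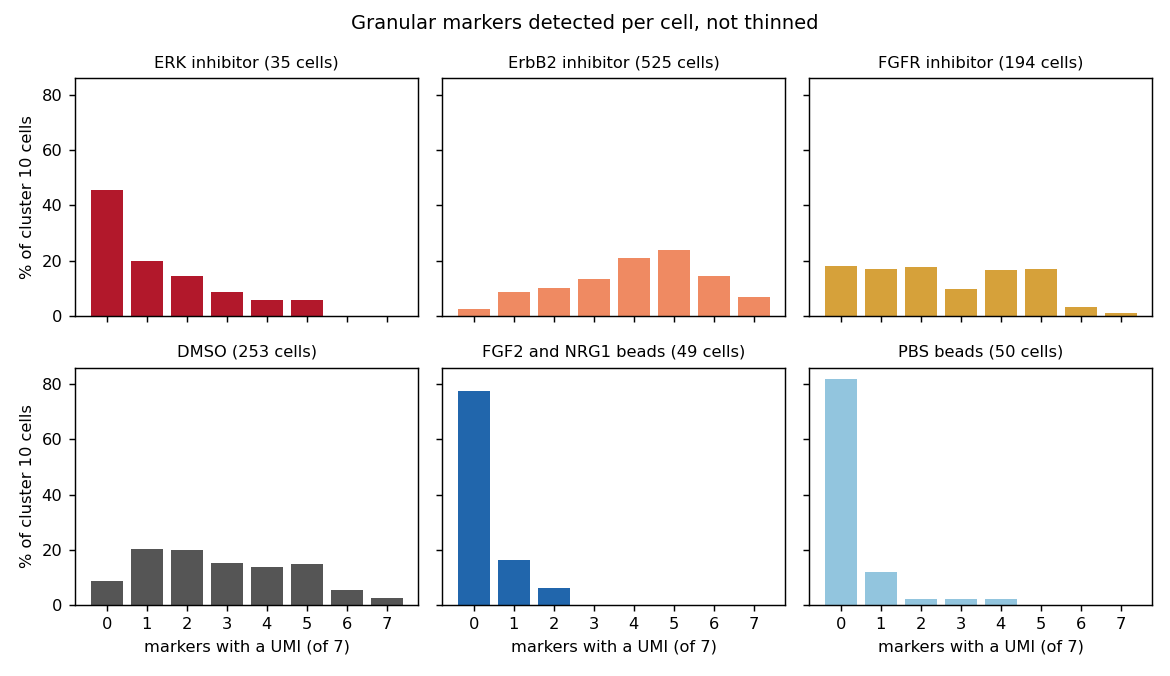
Share of the cells of cluster 10 (percent) by the number of the 7 granular genes with at least 1 UMI, from 0 to 7, in each library, without thinning. Cells with no granular gene make up 2.29% of the cluster under ErbB2 inhibitor and 82.0% around PBS beads.

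The genes that led the cluster beside the rest of its own library were mixed. Among the 10 genes with the highest fold, the granular genes held 1 place under ERK inhibitor (Hrnr), 1 under ErbB2 inhibitor (Flg2), 1 under FGFR inhibitor (Flg2) and 2 under DMSO (Flg2 and Flg), and none in either mouse library. No spinous marker stood among those 10 in any library. By abundance cluster 10 was dominated by spinous genes in the spiny mouse, where Krt10, a keratin of the suprabasal layers, led, and Krtdap, Lgals7, Krt1 and Fabp5 were also among the highest. In the mouse, Malat1, a nuclear long noncoding RNA, and Gm42418, a gene that overlaps ribosomal RNA, stood beside Krt10 among the most abundant. In the mouse sets the name granular is not carried by the counts. Under ERK inhibitor only 7 of 35 cells had at least 3 of the 7 genes. Their sum there, 2205 CPM, was still above the 46.4 and 40.9 CPM of suprabasal clusters 5 and 9. The population is called cluster 10 here. Lor, which encodes loricrin, had 0 UMIs in the suprabasal clusters of the spiny mouse but 9564 and 17382 CPM in cluster 35 of the FGF2 and NRG1 and the PBS bead libraries, so spiny mouse values are only what was counted under mouse names, and no ratio across species was computed.

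Flg had 6 UMIs under ERK inhibitor, 9368 under ErbB2 inhibitor, 2372 under FGFR inhibitor and 2720 under DMSO, which are 118, 8347, 6388 and 5974 CPM, and 3 and 0 UMIs in the FGF2 and NRG1 and the PBS bead libraries. Asprv1 stood at 689 CPM under ERK inhibitor, 3588 under ErbB2 inhibitor, 953 under FGFR inhibitor and 1287 under DMSO. The ErbB2 inhibitor library was highest for both, and the ERK inhibitor library was the lowest of the spiny mouse libraries.

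Lce1f had 0, 1262, 46 and 151 UMIs in the ERK, ErbB2, FGFR inhibitor and DMSO libraries, and 0 and 2 in the FGF2 and NRG1 and the PBS bead libraries. Flg2 had 0, 267, 56 and 83 UMIs in the same 4 spiny mouse libraries and 0 in both mouse libraries. For the ERK inhibitor cells a count of 0 still allows 59.1 CPM (3 UMIs of 50794), so Flg2 and Lce1f were below that level there. Serpina12 varied least over the ERK, ErbB2, FGFR inhibitor and DMSO libraries, at 748, 1294, 1242 and 951 CPM. Cdsn stood at 256, 1279, 967 and 885 CPM in the same order. Hrnr was the only one of the 7 whose level under ERK inhibitor exceeded that under DMSO, with 394 CPM under ERK inhibitor, 530 under ErbB2 inhibitor, 285 under FGFR inhibitor and 246 under DMSO.

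**Figure D3:**
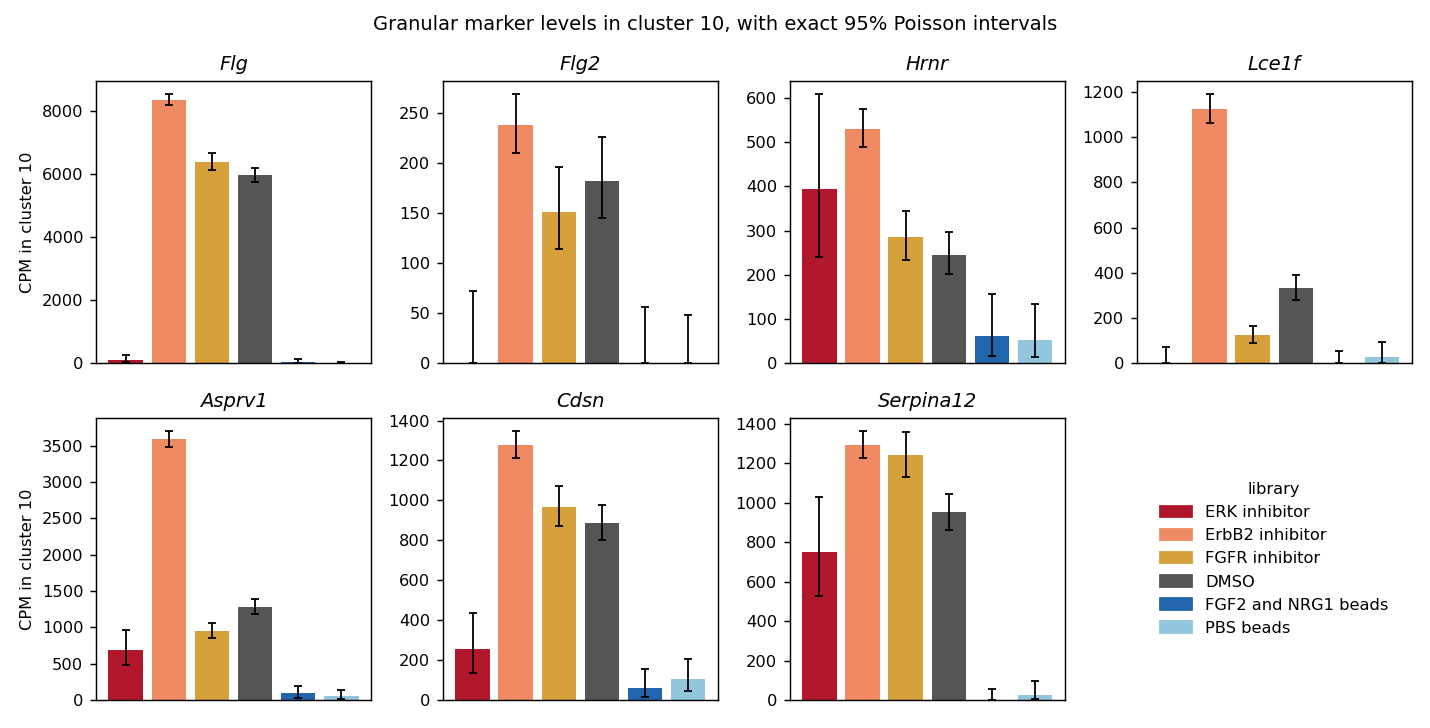
Level of each of the 7 granular genes in cluster 10 (CPM, bars from 0) by library, with the exact 95% Poisson interval of the count as error bars. The ErbB2 inhibitor library is highest for each gene, reaching 8347 CPM for Flg and 3588 CPM for Asprv1.

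Part of the Flg signal was also present in cells that should not make it. Flg was seen in 8.57%, 83.4%, 54.6% and 62.8% of the cells of cluster 10 in the ERK, ErbB2, FGFR inhibitor and DMSO libraries, and in 0%, 60.9%, 39.1% and 39.2% of the T cells, whose median depths were 4184, 1937, 2080 and 1400 UMIs. With both thinned to 1000 UMIs the shares were 70.8% of cluster 10 against 40.2% of T cells under ErbB2 inhibitor, 42.5% against 25.0% under FGFR inhibitor and 54.6% against 30.3% under DMSO. Free RNA in the droplets thus bears on shares of Flg-positive cells, and its part in the difference between libraries was not tested. Serpina12 was less affected: after thinning it was seen in 52.5% of cluster 10 against 4.10% of T cells under ErbB2 inhibitor, 46.2% against 1.85% under FGFR inhibitor and 45.4% against 10.9% under DMSO. Under ERK inhibitor the thinned shares of Serpina12 were 28.6% of cluster 10 and 0% of T cells, while unthinned they were 37.1% and 0%. The T cell shares of Flg and Serpina12 under ERK inhibitor rest on 19 cells. Each of these genes was seen in 1 of the 44 endothelial cells there (2.27%, unthinned). Unthinned, the Serpina12 shares of cluster 10 were 63.8%, 53.1% and 54.5% under ErbB2 inhibitor, FGFR inhibitor and DMSO, and those of T cells 14.8%, 3.64% and 13.9%.

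Beside the other suprabasal cells of the same library, cluster 10 had less of the basal keratins Krt5 and Krt14 in all 6 libraries, and the medians of the desquamation and barrier lipid lists were above 0 in each. These values describe the cluster and are no test, because the same cells were clustered on their genes. On the log2 scale the median of the measured granular genes was 0.34 under ERK inhibitor, 1.83 under ErbB2 inhibitor, 0.90 under FGFR inhibitor and 2.09 under DMSO, but −1.03 and −1.92 in the FGF2 and NRG1 and the PBS bead libraries, over 4, 7, 7, 7, 1 and 3 measured genes. Those cells include cluster 35. Without it the medians were 3.15 (7 genes), 2.99 (6) and 3.64 (6) under ErbB2 inhibitor, FGFR inhibitor and DMSO, 1 gene was measured under ERK inhibitor (Asprv1, at 2.58) and none in either mouse library. Desquamation proteases and their kin had medians of 0.42 to 0.79 over the 6 libraries (between 4 and 14 genes measured), and barrier lipid enzymes 0.42 to 0.82 (between 5 and 25), where the medians of all measured genes lay between −0.18 and 0.06. Of the transglutaminase list, whose enzymes crosslink the cornified envelope, only 1 to 3 genes were measured in a library. Beside cluster 35, the granular genes of cluster 10 were lower, with medians of −1.26 under ErbB2 inhibitor, −1.78 under FGFR inhibitor and −1.37 under DMSO.

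By gene, Flg2 stood highest beside the other suprabasal cells, with log2 ratios of 3.28 under ErbB2 inhibitor, 1.77 under FGFR inhibitor and 3.67 under DMSO. Flg was at 1.89, 1.33 and 2.47 in those libraries. Without the cell holding the most UMIs of the gene, Flg2 was at 3.13, 0.89 and 3.36, and Flg at 1.59, 0.81 and 2.35. Under FGFR inhibitor Serpina12, treated alike, was then above both, at 1.07. Under ERK inhibitor Flg was at −2.99, with 6 UMIs in cluster 10 and 2386 in the other suprabasal cells, of which the 1 cell of cluster 35 named above gave 2331. Klk7, a protease that cleaves corneodesmosomes and sheds corneocytes (chromosome 7, 43811294 to 43816359), was at 1.51, 0.98, 0.62 and 1.86 in the ERK, ErbB2, FGFR inhibitor and DMSO libraries. Serpinb7, an epidermal protease inhibitor, was at 1.75, 1.31, 1.03 and 1.52, and Cnfn, which encodes cornifelin of the cornified envelope, at 1.66, 0.98, 0.77 and 1.46 in the 4 spiny mouse libraries. Hal, the enzyme that converts histidine to urocanic acid in the upper epidermis, was higher in all 6 libraries, from 0.70 under FGFR inhibitor to 2.24 around FGF2 and NRG1 beads. The basal keratins were lower throughout: Krt14 lay between −1.95 under ERK inhibitor and −0.86 around PBS beads, and Krt5 between −1.85 around FGF2 and NRG1 beads and −0.69 under ErbB2 inhibitor.

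For the comparisons between treatments a gene counted as measured from 30 UMIs in the 2 libraries together, with 5 expected in the shallower one, and it was called higher or lower from a 1.5-fold difference. Under ERK inhibitor, cluster 10 carried far less of the filaggrin and late envelope genes than under DMSO, less of the basal, protease inhibitor and wound keratinocyte genes, and like levels of the suprabasal keratins. Of 1329 measured genes, 15% were called higher and 23.7% lower. Of the 7 granular genes 1 was higher and 5 were lower, and of 5 measured filaggrin and late cornified envelope genes 1 was higher and 4 were lower, where over all measured genes the calls were 200 higher and 315 lower. The medians of these 2 lists were −1.77 and −5.56 on the log2 scale by the fitted ratios, and −1.63 for both once members with 0 UMIs were set to their bound. The set rested on 35 cells, against 253 under DMSO. Of the 5 filaggrin and late envelope genes 3 had 0 UMIs under ERK inhibitor and were measured through the DMSO library alone. The smallest total of a measured gene was 50 UMIs, so members low in both libraries were not counted.

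Flg was at a log2 ratio of −5.61 under ERK inhibitor (interval −7.11 to −4.54), with UMIs in 3 of 35 cells against 159 of 253. Lce1f, at 0 against 151 UMIs, was at least 5.61-fold lower, Flg2, at 0 against 83, at least 3.09-fold lower, and Lce1b, a neighbouring late envelope gene, at 0 against 76, at least 2.83-fold lower. Cdsn was at −1.77, its interval wholly below 0, and Asprv1 at −0.90 (−1.44 to −0.41), while the interval of Serpina12 (−0.86 to 0.13) and that of Hrnr (−0.09 to 1.37, called higher at 0.67) included equality. In the other suprabasal cells Flg2 had 0 UMIs under ERK inhibitor too, against 313 under DMSO. Flg was at −0.19 and Asprv1 at 1.11 there, but cluster 35, with 5 cells under ERK inhibitor, against 129 under DMSO, gave most of those UMIs. Without cluster 35 Flg was at −4.36 (28 against 4931 UMIs) and Asprv1 at −0.31 (279 against 2936).

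Other cornification lists were mixed under ERK inhibitor. Of 9 measured desquamation genes 0 were higher and 5 lower, and of 12 protease inhibitors 1 was higher and 7 lower. The interval excluded equality for 3 of the 5 and 4 of the 7 lower genes, and not for the 1 higher. The loricrin, involucrin and SPRR list had 1 higher and 1 lower of 6 measured genes (median −0.20), the transglutaminases 0 and 1 of 2 (−0.17), and the barrier lipid enzymes 2 and 1 of 6 (−0.02). Cst6, which encodes cystatin E/M, an inhibitor of cathepsins in the cornifying epidermis (chromosome 19, 5344705 to 5349574), had 3 UMIs in 1 cell under ERK inhibitor and 1190 UMIs in 168 cells under DMSO, a log2 ratio of −5.38 (−7.75 to −3.92), and was at −1.58 in the other suprabasal cells, or −3.77 without cluster 35. Casp14, the caspase that degrades filaggrin, had 2 against 173 UMIs (−3.15, interval −6.33 to −1.40). Klk7 was at −1.15 (−1.77 to −0.60), but Klk5, the protease that activates it, was at 0.01 (−0.41 to 0.40). Stfa3, a stefin, was at −2.17 (−3.00 to −1.48). Degs2, the 1 lower lipid enzyme, had 1 against 117 UMIs (−3.46).

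Basal and adhesion genes were lower for 6 of 6 measured members under ERK inhibitor (median −1.85), but 5 of the 6, Krt5 and Krt14 among them, stood at the level of free RNA, as 54.6% of all measured genes did. That level means that on the side where the gene was higher, cluster 10 had no more than 3 times what the lowest other cell class of the library had. Krt5 had 39 UMIs under ERK inhibitor and 1670 under DMSO, a log2 ratio of −2.25 (−2.75 to −1.80), against −1.51 in the other suprabasal cells and 0.01 in the basal cells. Krt14 was at −2.10. Of the 5 measured wound keratinocyte genes all 5 were lower (median −1.21). Krt17 had 0 against 151 UMIs, and 15 of the 19 UMIs of Krt16, at −1.42, came from 1 cell, the value being −3.43 without the deepest cell of each library. S100a8 was at −0.81 in cluster 10 but at 0.74 in the other suprabasal and 2.23 in the basal cells.

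Members of the immediate early list were among the higher genes under ERK inhibitor. Of 11 measured immediate early genes 5 were higher and 0 lower (median 0.57), among them Btg1, an antiproliferative gene, with 22 against 61 UMIs (1.66, interval 0.92 to 2.42) and Dusp1, a phosphatase of MAP kinases, with 13 against 57 (1.01). Of the list of ERK targets and feedback genes only Ier2 was measured, with 13 UMIs under ERK inhibitor and 78 under DMSO (0.57, interval −0.39 to 1.44), not called. Igfbp3, which encodes an IGF-binding protein, had 89 against 268 UMIs and a log2 ratio of 1.57 (1.21 to 1.92), against 1.33 in the other suprabasal and 1.70 in the basal cells. Klf4, a transcription factor of barrier formation, was at 0.79, Scel, which encodes sciellin of the envelope, at 1.11 (0.63 to 1.57), and Fam25c at 0.99 (0.87 to 1.10), with 171 of its 728 UMIs in 1 cell. Krt10 (0.28), Krt1 (−0.05) and Krtdap (0.03) were not called. With trimmed mean (TMM) scaling the zero point of this comparison moves by 0.38 on the log2 scale, and the calls become 68 higher and 578 lower. Hrnr is then no longer called, the immediate early genes are 3 higher and 1 lower (median 0.19), and the median of the transcription factors of granular differentiation is −0.24 instead of 0.14.

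Markers of other cell types also differed between these sets. Of the 8 fibroblast markers 0 were detected under ERK inhibitor and 7 under DMSO (428 CPM), the 8 inner root sheath markers summed to 138 CPM under ERK inhibitor and 1023 under DMSO, and the 8 outer root sheath and infundibulum markers to 118 and 3226 CPM, the last mostly Cst6. Their part in the lower genes was not tested.

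**Figure D4:**
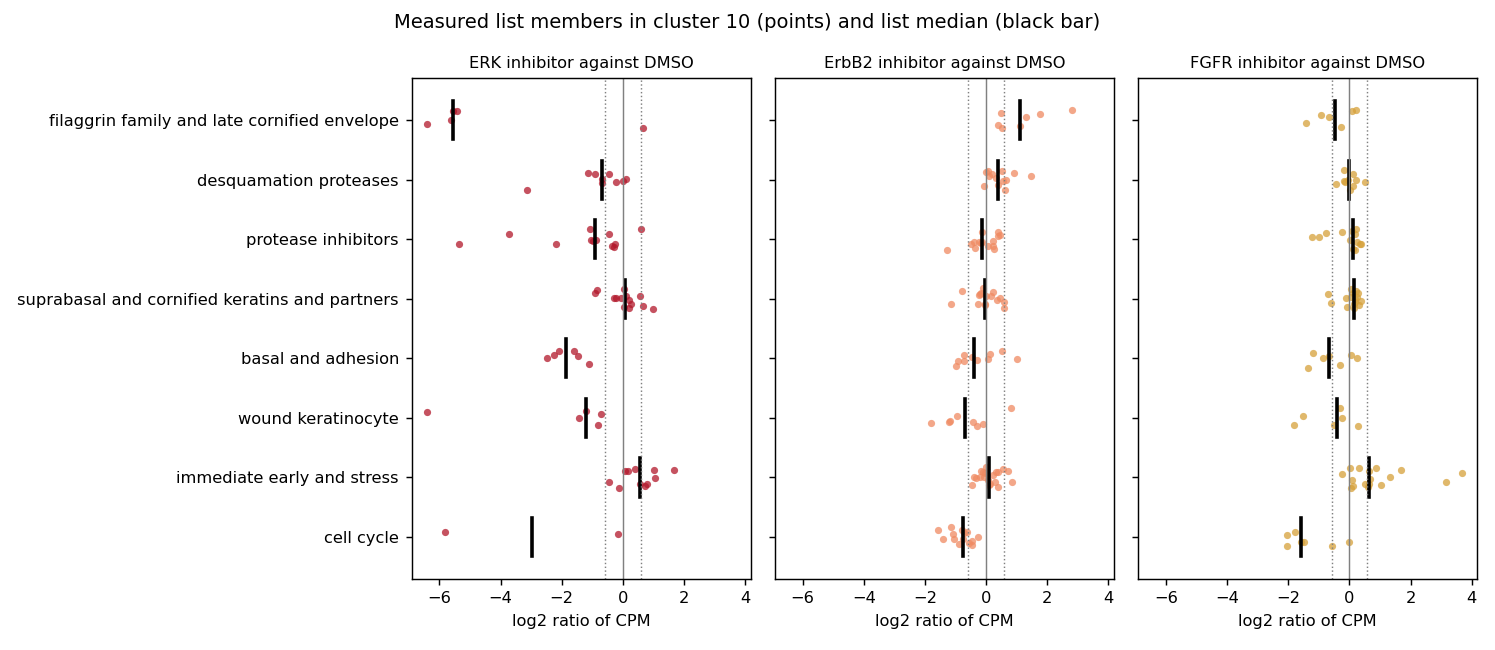
Log2 ratio of cluster 10 under each inhibitor over DMSO for the measured members of 8 gene lists, with 1 point per gene, a black bar at the list's median and dotted lines at 1.5-fold. Members with 0 UMIs are drawn at their fitted value, which is no bound. The filaggrin and late envelope members lie low under ERK inhibitor (median −5.56 by fitted values), high under ErbB2 inhibitor (median 1.10) and below 0 under FGFR inhibitor (median −0.46).

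Under ErbB2 inhibitor the late envelope genes, Asprv1 and Hrnr were higher than under DMSO, and most measured cell cycle genes were lower. This comparison was the deepest, with 4481 measured genes, of which 8.61% were called higher (386) and 11.9% lower (533). Of the 7 granular genes 3 were higher and 0 lower (median 0.53), and of 7 filaggrin and late envelope genes 4 were higher and 0 lower (median 1.10). The highest of these 4, Lce3b at 2.80, had 60 UMIs under ErbB2 inhibitor and reached the minimum only through that library. Lce1f had 1262 UMIs in 240 cells under ErbB2 inhibitor and 151 UMIs in 66 cells under DMSO, a log2 ratio of 1.76 (1.52 to 2.01). Lce1b (chromosome 3, 92655650 to 92656926) was at 1.29 (0.95 to 1.67), Asprv1 at 1.48 (1.35 to 1.61) and Hrnr at 1.10 (0.81 to 1.41). Flg (0.48), Cdsn (0.53), Serpina12 (0.44) and Flg2 (0.38) were also above DMSO, below the 1.5-fold threshold. TMM scaling moves the zero point by −0.16 here, and the calls become 628 higher and 299 lower, with 6 of 7 granular genes called higher.

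The differences were smaller among cells that carry the granular genes. Among cells with at least 3 of the 7 genes in both libraries, a subset that these genes themselves select, Flg was at −0.03, Cdsn at 0.01, Hrnr at 0.62 and Asprv1 at 1.01, and the granular median was 0.10. A single cell held 1870 of the 9368 Flg UMIs under ErbB2 inhibitor, against at most 276 of 2720 in a cell under DMSO. Once cells over 3 times the median depth were left out, Flg stood at 0.74 and Flg2 at 0.79, both then called higher. Flg stood at 0.31 when the deepest cell on each side was dropped. The same direction was present outside the cluster: Lce1f was at 2.24, Asprv1 at 1.96 and Flg at 1.07 in the other suprabasal cells, and at 1.88, 1.87 and 1.21 there without cluster 35.

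Other cornification genes under ErbB2 inhibitor lay closer to DMSO. Of 13 desquamation genes 4 were higher and 0 lower, with Klk5 at 0.64 (0.50 to 0.78) and Klk7 at 0.57 (0.43 to 0.71), below the threshold. The interval excluded equality for 2 of the 4 higher genes. None of 8 corneodesmosome genes and none of 6 small proline-rich (SPRR) and other envelope precursor genes was called. Hopx, a homeodomain-only cofactor expressed in differentiating keratinocytes, had 606 against 101 UMIs (1.28, interval 0.98 to 1.60). The ceramide-related enzymes Elovl1 (454 against 92 UMIs, interval 0.68 to 1.34) and Degs1 (1.06) and the claudins Cldn4 (0.90) and Cldn1 (0.70), which seal tight junctions, were higher. The lists of these genes did not shift as a whole. Of 17 measured transcription factors of granular differentiation 1, Hopx, was higher and 2 were lower (median −0.02). Of 20 barrier lipid genes 3 were higher and 1 lower (median 0.02). Of 10 tight junction genes 2 were higher and 2 lower (median 0.12). Krtdap was at 0.59 and Fam25c at 0.59, whereas the keratin Krt77 (chromosome 15, 101858731 to 101869705) had 5461 against 3820 UMIs and was at −0.79. Ccl20, a chemokine of epithelia, was at 1.39 (0.97 to 1.86), the 1 higher of 8 measured cytokine and chemokine genes, of which 2 were lower.

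Of 14 measured cell cycle genes 0 were higher and 10 lower under ErbB2 inhibitor (median −0.76), with Mki67, the proliferation marker, at −1.58 and Tk1, which encodes a thymidine kinase, at −1.67. Of these 14 genes 9, Mki67 among them, stood at the level of free RNA, as 60.6% of all measured genes did. Of 8 wound genes 1 was higher and 4 lower, with S100a9 at −1.81 and Krt16 at −1.18, and of 10 basal and adhesion genes 1 was higher and 4 lower, with Krt5 at −0.97 and Krt14 at −0.93. At the level of free RNA were 1 of the 8 wound genes and 7 of the 10 basal and adhesion genes, Krt5 and Krt14 included. Tchh, which encodes trichohyalin of the inner root sheath (chromosome 3, 93442330 to 93449077), had 8 UMIs under ErbB2 inhibitor and 146 under DMSO (−5.26, interval −6.73 to −4.47). All 5 measured inner root sheath markers were lower, and the 8 inner root sheath markers summed to 49.0 and 1023 CPM. Of the 5, 3 stood at the level of free RNA, and Tchh reached the minimum only through the DMSO library. In the other suprabasal cells Tchh was at −7.63 and Krt25, another of these markers, at −5.78. Fibroblast markers ran the other way, with 886 CPM under ErbB2 inhibitor and 428 under DMSO, and 51 of the 186 Col1a1 UMIs came from 1 cell. The fibroblast median was 0.90, and −0.26 once cells with 2 or more UMIs of other cell types were left out. The part of these markers in the other differences was not tested.

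The highest ratios of this comparison belonged to 2 keratin-associated protein genes that lie side by side on chromosome 11. Krtap3-1 (99566027 to 99566630) had 679 UMIs under ErbB2 inhibitor and 2 under DMSO, a log2 ratio of 6.74 (5.25 to 10.15), and Krtap3-2 (99555823 to 99556853) had 551 and 2 (6.44, interval 4.94 to 9.85). Such genes are known from the hair shaft cortex. Their UMIs were not spread over the cluster: 97 cells had at least 5 of them (5 to 29, median 12), 8 cells had 1 to 4 and 420 cells had none. The rest of the ErbB2 inhibitor library held 316 such UMIs in 93 cells, of which 3 cells had at least 5, and cluster 10 of the other 5 libraries held at most 4. In the DMSO library 475 cells outside cluster 10 held 3788 such UMIs, and 9 of those cells had at least 5.

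These 97 cells, chosen here after their values were seen, made up 18.5% of the ErbB2 inhibitor cells of cluster 10 and 11.9% of its UMIs. They were shallower than the 420 cells with none, with medians of 1279 and 1744 UMIs and highest cells of 4822 and 18497 UMIs. All of them had at least 3 of the 7 granular genes (100%), against 74.5% of those with none, and the 7 genes summed to 20862 CPM in the Krtap3 cells and 16038 CPM in the others. They were also more alike. Thinning to 1000 UMIs kept 73 of the 97 Krtap3 cells and 385 of the 420 others, since cells below 1000 UMIs were left out. In the thinned cells the variance of Flg over its mean was 1.58 in the Krtap3 cells and 42.6 in the other ErbB2 inhibitor cells. It was 99.0 in the FGFR inhibitor cells and 22.3 in the DMSO cells, where independent counting gives about 1. The mean of Flg was nearly equal, at 8.40 UMIs per 1000 in the Krtap3 cells and 7.94 in the others. Krt1 showed the same contrast, with 1.35 against 22.8.

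**Figure D5:**
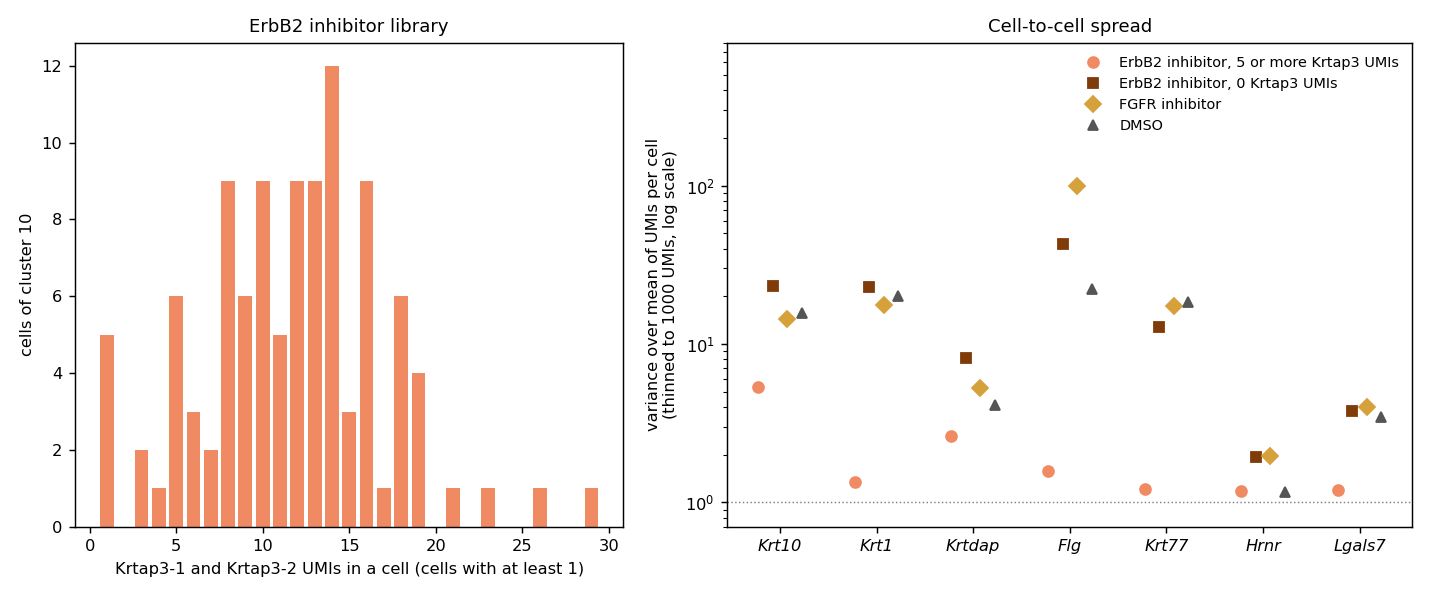
Left, number of cells of cluster 10 under ErbB2 inhibitor by their summed Krtap3-1 and Krtap3-2 UMIs, for cells with at least 1. Right, variance over mean of UMIs per cell thinned to 1000 UMIs (log axis) for 7 genes in the Krtap3 cells, the other ErbB2 inhibitor cells, the FGFR inhibitor cells and the DMSO cells; for Flg these are 1.58, 42.6, 99.0 and 22.3.

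In level the Krtap3 cells differed from the ErbB2 inhibitor cells of cluster 10 without these UMIs. Krt10 was at 38.7 UMIs per 1000 in the Krtap3 cells and 86.2 in the others, and Krt1 at 6.51 and 14.5. Lce1f had 509 UMIs in the Krtap3 cells and 739 in the others, a log2 ratio of 2.31 (2.15 to 2.48), and Lce1b 189 and 266 (2.35, interval 2.08 to 2.63). Among single genes, Top2a, a DNA topoisomerase of dividing cells, had 31 and 28 UMIs (2.92), the histone gene Hist1h3b 43 and 39 (2.93), and S100a9, a wound gene, 46 and 39 (3.03). Wound genes did not share 1 direction: S100a8 was at 0.83, Krt16 at −0.20, Krt17 at −0.56 and Sprr1b at −1.32 (−1.70 to −0.97). Of 4 measured cell cycle genes 3 were higher and 1 was lower. The basal keratins were also higher in the Krtap3 cells, with Krt5 at 1.20 (500 and 1568 UMIs), Krt14 at 1.10 and Krt15 at 1.84. Of 2817 genes measured between these sets 18.2% were higher and 15.7% lower by 1.5-fold. Wfdc17, with 4 UMIs in the Krtap3 cells and 468 in the others, and the collagen gene Col6a1, with 1 and 101, were lower. Without these cells Lce1f under ErbB2 inhibitor stood at 1.20 over DMSO and Lce1b at 0.72, both still called, and the filaggrin and late envelope list had 4 higher and 0 lower members (median 0.72). Lce3b, which reached the minimum only through the ErbB2 inhibitor library, was 1 of these 4, at 2.73. Whether these 97 barcodes are single cells or droplets of free RNA was not tested. They count among the 416 of 525 cells with at least 3 granular genes, and without them the share was 319 of 428 (74.5%).

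Under FGFR inhibitor the granular genes were close to those under DMSO, while immediate early genes were higher. Of 3014 measured genes 7.33% were called higher (221) and 11.7% lower (354). Of the 7 granular genes 0 were higher and 1 was lower (median 0.10), the lower one being Lce1f, with 46 UMIs under FGFR inhibitor and 151 under DMSO (−1.40, interval −1.93 to −0.94). Lce1b was at −0.93, so that of 6 filaggrin and late envelope genes 0 were higher and 3 lower (median −0.46), whereas Flg was at 0.10 (0.02 to 0.18), Cdsn at 0.13 (−0.08 to 0.34), Serpina12 at 0.38 (0.19 to 0.58) and Asprv1 at −0.43 (−0.63 to −0.24). Without cells over 3 times the median depth Flg was at 0.53 and Asprv1 at 0.06, neither called. In the other suprabasal cells Lce1f was at 1.08, Flg at 1.24, Flg2 at 1.62 and Asprv1 at 1.40, but without cluster 35 these were −1.22, 0.88, 0.45 and 0.55. None of 10 desquamation genes was called, and Klk7 was at −0.04 (−0.23 to 0.15).

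Of 17 measured immediate early genes 10 were higher and 0 lower under FGFR inhibitor (median 0.63). The interval excluded equality for 9 of the 10, and 5 of the 17 stood at the level of free RNA. Fos, a subunit of the AP-1 transcription factor (chromosome 12, 85473890 to 85477273), had 126 UMIs in 56 cells under FGFR inhibitor and 11 UMIs in 10 cells under DMSO, a log2 ratio of 3.68 (2.92 to 4.85). Fosb, its relative, had 29 and 3 UMIs (3.16, interval 1.88 to 5.93), Dusp1 152 and 57 (1.69, interval 1.26 to 2.17), and Zfp36, which destabilises mRNAs, 32 and 15 (1.33, interval 0.46 to 2.38). The same direction was present outside cluster 10: Fos was at 2.12 in the other suprabasal and 2.42 in the basal cells, Fosb at 2.71 and 2.72, and Dusp1 at 1.30 and 1.87. Of the 26 genes of the list of ERK targets only 4 were measured, and 3 of them were higher (median 1.90). That list shares members such as Fos and Fosb with the immediate early list. Fos and Fosb reached 30 UMIs only through the FGFR inhibitor library, where they were higher, so the minimum partly set this count.

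Lipid genes leaned higher and several stress genes lower under FGFR inhibitor. Of 19 barrier lipid genes 5 were higher and 2 lower (median 0.35), with Sptlc3, a subunit of serine palmitoyltransferase, at 1.18, and of 8 cholesterol genes 2 were higher, Hmgcs1 at 0.84 and Cyp51 at 0.61. The interval excluded equality for only 2 of the 5 higher and 1 of the 2 lower barrier lipid genes. Jup, which encodes plakoglobin of desmosomes, had 221 against 584 UMIs (−1.10, interval −1.34 to −0.88). Of 13 antioxidant genes 0 were higher and 5 lower, with the metallothionein Mt1 at −1.09 and the ferritin Fth1 at −0.75. The cell cycle list had 0 higher and 5 lower of 7 (median −1.57), the basal and adhesion list 0 and 4 of 7 (median −0.67, Krt14 at −1.19), and the wound list 0 and 2 of 6, Krt16 at −1.52 and S100a9 at −1.80. At the level of free RNA were 9 of the 13 antioxidant, 7 of the 7 cell cycle and 5 of the 7 basal and adhesion genes, where 62.3% of all measured genes were. Inner root sheath markers summed to 151 CPM under FGFR inhibitor and 1023 under DMSO, and fibroblast markers to 143 and 428 CPM, with Tchh at −3.33. Their part in the lower genes was not tested.

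In the mouse, cluster 10 could not be described as granular, and none of the 7 granular genes reached the 30 UMIs needed to be measured. Around FGF2 and NRG1 beads it had more Krt2, a keratin of the upper epidermis, and less Krt77 than around PBS beads. Krt2 had 922 UMIs around FGF2 and NRG1 beads and 494 around PBS beads (1.11, interval 0.95 to 1.27, and 0.77 without cells over 3 times the median depth), against 0.48 in the other suprabasal cells. Krt77 had 23 UMIs in 10 cells around FGF2 and NRG1 beads and 299 UMIs in 28 cells around PBS beads (−3.44, interval −4.17 to −2.88), against −1.09 in the other suprabasal cells. Krt10 was at 0.35 (0.24 to 0.46) and Krt1 at −0.70 (−1.02 to −0.38), so the keratins of the suprabasal layers did not share 1 direction, and of 15 measured members 2 were higher and 2 lower. The background here was 613 measured genes, 12.7% called higher (78) and 11.7% lower (72).

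Several of the largest bead ratios came from 1 cell. Krt17 (chromosome 11, 100256217 to 100261029) had 5 UMIs around FGF2 and NRG1 beads and 379 around PBS beads, of which 362 lay in 1 cell. Krt79, with 7 against 218 UMIs, had 210 in 1 cell, Cst6, with 47 against 453 (−3.03, or −0.96 with the deepest cell on each side dropped), had 369 in 1 cell, and Klk7, with 7 against 37, had 28 in 1 cell. The outer root sheath and infundibulum markers therefore summed to 1053 CPM around FGF2 and NRG1 beads and 8947 CPM around PBS beads.

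Inner root sheath genes were higher around FGF2 and NRG1 beads in cluster 10, with 3 of 3 measured members (median 1.63; 2015 against 685 CPM over the 8 markers). Tchh had 36 UMIs around FGF2 and NRG1 beads and 9 around PBS beads (2.09, interval 1.13 to 3.45), and Krt25 had 34 and 12 (1.63). Tchh and Krt25 reached the minimum only through the FGF2 and NRG1 bead library, where they were higher. The minimum therefore partly set the count of 3 of 3. Both showed the same sign in the other suprabasal cells, at 1.47 and 1.85, and in the basal cells, at 1.36 and 2.00. Alox12e, an epidermal lipoxygenase, was at 1.31 and Casz1, a zinc finger transcription factor, at 1.48. Gm42418 was lower at −1.86 (−1.97 to −1.75), as in the other suprabasal (−1.46) and basal cells (−1.59).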

How the data were processed

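Per the labels' protocols, cells were dissociated with protease and a Dounce homogenizer and profiled with 10x Chromium 3' reagents. Cell Ranger 6.1.1 and the mouse build mm10 (GRCm38) are named in the submitters' processing notes. The sources used here do not say how clusters were made, whether doublets were removed or to which reference the spiny mouse reads were mapped. The matrix the authors deposited holds raw UMI counts, whole numbers, with 20381 genes as rows and 39577 cells as columns. Their deposited cell annotation lists library, cluster number, type name, UMI count and gene number of each cell, and the percent of its UMIs from haemoglobin, ribosomal and mitochondrial genes. The cluster column is named for a clustering resolution of 2.

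UMI counts of cluster 10 were summed per library, and CPM are counts scaled to those UMIs. The log2 ratio of CPM, treated library over its control, was taken with a prior of 1 UMI on average, split by depth, and its 95% interval is the exact conditional binomial one. A gene with 0 UMIs on 1 side was bounded from a floor of 3 UMIs in that library, and levels have exact Poisson intervals. These cover counting error only, since each group was 1 library, and no test or p-value was computed. A gene needed 30 UMIs over both libraries and 5 expected in the shallower one, and calls start at 1.5-fold. Genes at the level of free RNA (within 3 times the lowest other cell class) were left out of the highest and lowest ratios. Named genes were the 7 markers, the 8 highest and 8 lowest ratios of each comparison whose interval excluded equality, up to 4 members of each of 29 programme lists with the largest ratio, and the 20 genes highest beside the other suprabasal cells. Other genes in the text were chosen after their values were seen. The members and lists were chosen with earlier results of these data known. No doublet caller was run, and cells over 3 times the median depth were left out as an alternative. The procedure was tested on simulated Poisson counts of the summed libraries. Those hold no spread between cells, so that test does not cover such spread. Python 3.11.15, numpy 2.4.6, pandas 2.3.3, scipy 1.17.1, matplotlib 3.10.9, R 4.3.3 and edgeR 4.0.16 (TMM factors only) were used. Alternatives were other minimums, TMM scaling, thinning, means over cells and subsets of cells. Thinning to 1000 UMIs left out every cell with fewer.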

Additional observations from a re-analysis of the deposited data

How the results depend on the processing

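No paired analysis was possible because each group was 1 library. The shallow depth of the cluster limits every comparison, most of all that of the ERK inhibitor (35 cells) and of the beads (49 and 50 cells). Over the alternatives, 4420 values of named genes stayed inside the counting interval of the main one, 212 left it and 8 called ones changed sign. Of list medians 1458 stayed within 1.5-fold, 41 did not and 8 called ones changed sign. Of counts and shares 90 stayed and 44 moved. Restricting to cells with at least 3 granular genes was not run for the ERK inhibitor and the beads, which had too few. Leaving out cells over 3 times the median, cells with UMIs of other types, the deepest cell, cells without granular genes, the Krtap3 cells and, outside cluster 10, cluster 35 were alternatives chosen after seeing the data; elsewhere the cause of a change was not tested.

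The calls higher and lower changed as follows. For the ERK inhibitor they were 73 and 139 with 10 expected UMIs, 380 and 556 with the minimum of 30 UMIs alone, 68 and 578 with TMM scaling, 108 and 184 after thinning, 63 and 173 from 2-fold, and 90 and 129 where the interval also excluded equality, and 108 were higher in cells with at least 1 granular gene. For the ErbB2 inhibitor they were 628 and 299 with TMM scaling, 107 and 125 from 2-fold and 153 and 286 with the interval, and 266 were lower after thinning. For the FGFR inhibitor they were 31 and 101 from 2-fold and 106 and 176 with the interval. There, 182 were lower after thinning, 145 were higher in cells with at least 3 granular genes, and 224 were lower without cells holding UMIs of other types. For the beads they were 20 and 27 from 2-fold and 46 and 42 with the interval, 32 were higher after thinning and 109 were lower by the mean over cells. Thinning, subsets and stricter rules reduce the genes measured or called by construction.

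The called values that changed sign were these. For the ERK inhibitor the median of the list of nuclear and organelle removal was 0.16 with 10 expected UMIs, 0.26 after thinning, 0.27 without cells over 3 times the median, 0.23 without the deepest cell and 0.21 in cells with at least 1 granular gene, the sebocyte median was 0.52 after thinning and 0.10 without cells over 3 times the median, and Mt1 was 0.11 after thinning. For the ErbB2 inhibitor Il1f10 was 0.27 after thinning, 0.11 by the mean over cells and 0.41 without cells over 3 times the median, Mt4 was 0.085 after thinning, Rrm1 was 0.22 by the mean over cells, and the fibroblast median was −0.26 without cells holding UMIs of other types. For the beads Sprr1a was 0.45 by the mean over cells and Rplp1 −0.0083 without cells over 3 times the median.

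As a share of all interfollicular cells cluster 10 was 12.1%, 9.31%, 7.70% and 2.99% in the ERK, ErbB2, FGFR inhibitor and DMSO libraries and 4.79% and 4.64% in the FGF2 and NRG1 and the PBS bead libraries, and as a share of suprabasal cells 22.9%, 16.8%, 16.2%, 8.44%, 10.4% and 10.2%. Cells with at least 3 granular genes were 65.8% under ErbB2 inhibitor, 35.5% under FGFR inhibitor and 38.9% under DMSO after thinning. Beside the other suprabasal cells the granular median by the mean over cells was −1.84 around FGF2 and NRG1 beads (1 gene) and −1.11 around PBS beads (3 genes).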

Other observations

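Housekeeping programmes of cluster 10 differed little between each inhibitor and DMSO at the main scaling. Of 26 cytosolic ribosomal protein genes 2 were higher and 1 was lower under ERK inhibitor, none was called under ErbB2 inhibitor and 1 was lower under FGFR inhibitor, each against DMSO. Of the oxidative phosphorylation genes, 3 of 19 were higher and 2 lower under ERK inhibitor, none of 24 was called under ErbB2 inhibitor, and 3 of 24 were lower under FGFR inhibitor. With TMM scaling the ERK inhibitor count of that list became 0 higher and 9 lower. Antimicrobial genes were lower for 3 of 3 measured members under ERK inhibitor (median log2 ratio −0.88), 2 of 5 under ErbB2 inhibitor (−0.49) and 2 of 4 under FGFR inhibitor (−0.76). The interval excluded equality for 2 of the 3 lower members under ERK inhibitor, and for 2 of 2 under ErbB2 and under FGFR inhibitor. Of all measured genes 23.7%, 11.9% and 11.7% were lower in the same order, so lists this short say little beyond that background. Most of the ribosomal (15, 26 and 26 of 26) and oxidative phosphorylation genes (18 of 19, 22 of 24 and 24 of 24) stood at the level of free RNA in the ERK, ErbB2 and FGFR inhibitor comparisons, which share the DMSO library. Around FGF2 and NRG1 beads 4 of 27 ribosomal protein genes were higher and 0 lower than around PBS beads (median 0.30). Of 17 oxidative phosphorylation genes 1 was higher and 2 were lower there. At the level of free RNA were 27 of the 27 and 16 of the 17.

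Beside the other suprabasal cells of its library, cluster 10 was also higher in cholesterol synthesis genes, with medians between 0.30 under ErbB2 inhibitor and 1.22 around PBS beads, and in transcription factors of granular differentiation, with medians between 0.31 under FGFR inhibitor and 0.74 under ERK inhibitor. The median of the ribosomal protein genes was lower in all 6 libraries, between −0.97 around PBS beads and −0.19 under ErbB2 inhibitor, and so was that of glycolysis and hypoxia genes, between −0.62 around FGF2 and NRG1 beads and −0.20 under ErbB2 inhibitor. The cells of cluster 10 were shallower than those they are set beside, and the part of depth was not tested.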
